A study of Homo sapiens with 12 samples.

Results

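The genes of the heat shock response and of the unfolded protein response were followed in breast cancer cells given a progestin. The set was a named list of 42 chaperone, endoplasmic reticulum (ER) stress and ATF4 pathway genes. Of these, 41 had a probe that the array's annotation names for them, out of 20046 genes measured in all. Where a gene had several probes, the one with the highest mean over the 12 arrays was used. HERPUD1, an ER membrane protein of the degradation machinery, was not analysed here. The list divides into a heat shock arm of 16 genes, an ER arm of 15 genes (14 measured) and an ATF4 arm of 11 genes.

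All samples were T47D-Y cells, human breast cancer cells derived from T47D that have lost the progesterone receptor (PR), carrying the vector pIRES-neo3. The KR cells expressed from it PR-B with the K388R mutation, a receptor that cannot be SUMOylated at this lysine. The WT cells expressed wild-type PR-B, and the PR-null cells carried the vector alone. Every line was expanded from a single cell under G418, so receptor and clone cannot be told apart. After 1 day without serum, cells received R5020, a synthetic progestin, or ethanol as vehicle for 6 h. The groups were KR with R5020, KR with vehicle, WT with R5020, WT with vehicle, PR-null with R5020 and PR-null with vehicle, with 2 arrays from duplicate experiments in each.

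The heat shock response is the rise of cytosolic chaperones that cells mount when proteins misfold, and its main activator is the transcription factor HSF1. HSP70 proteins bind unfolded chains, DNAJ proteins deliver the chains, BAG and HSP110 proteins release the nucleotide, and HSP90 finishes the folding of clients that include steroid receptors such as PR. The unfolded protein response serves the lumen of the ER through the sensors ATF6, IRE1 (ERN1) and PERK. ATF6 and the XBP1 factor made by IRE1 activity induce ER chaperones, whereas PERK phosphorylates eIF2 and so favours translation of ATF4, which induces genes of amino acid supply and the regulators ATF3, DDIT3, TRIB3 and CHAC1.

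Values are log2 intensities, and the number of arrays limits their precision. Calls required a log2 difference over 0.6 (1.52-fold) in either direction and an adjusted p under 0.01. All p-values are from limma with Benjamini-Hochberg adjustment over 47231 probes, two-sided, and values after ± are standard errors of differences between groups of 2 arrays. A background limit of 6.04 was taken from probes of olfactory receptor genes. Replicate arrays correlated at 0.995, and each array had 47.5% to 47.7% of its probes above the limit. PGR, the gene of PR, read 9.69 (R5020) and 8.91 (vehicle) in KR cells, 7.59 and 8.55 in WT cells, and 5.44 and 5.42, below the limit, in PR-null cells. Luminal epithelial markers lay above the limit on all arrays for 7 of 8 genes (TFF1 on 7 arrays). Of 10 markers of leukocytes, endothelium and fibroblasts, 4 lay above it on at least 2 arrays (CD68, COL1A1, VWF and DCN), the highest value being 8.15 for CD68, and none of the 10 was called for R5020 in KR or WT cells or for either receptor line over PR-null cells with vehicle. Of the 8 luminal markers, 2 fell with R5020 in KR cells (ESR1 -1.47 and GATA3 -0.70) and 3 in WT cells (ESR1 -1.39, GATA3 -1.53 and KRT18 -0.83). With vehicle ESR1 was higher than in PR-null cells (1.47 in KR, 1.62 in WT) and KRT18 was lower in KR cells (-0.63). Their part in the members' differences was not tested.

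Among the members, 38 lay above the limit on all 12 arrays and 40 on at least 2. SEL1L, an ER degradation adaptor, lay above it on 11 arrays, CHAC1, a glutathione-degrading enzyme, on 4, and ERN1 on 0. HSP90AA1, the inducible cytosolic HSP90, ranged from 13.55 to 13.99 over the 12 arrays, HSPB1 (HSP27) from 13.38 to 13.82, and HSPA8, the constitutive HSP70, from 13.21 to 13.64. Levels of different probes are not on a common scale, so no order between genes is drawn from them.

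The effect of R5020 on the module was asked first in each line. In KR cells 4 of the 41 members were called higher and 0 lower, which is 9.76% of members against 4.08% of all genes (2.7% higher). In WT cells 5 were called higher and 2 lower, which is 17.1% against 5.29% of all genes (3.3% higher and 2.0% lower). The members, and the other gene lists below, were chosen with earlier results of these data known. Their shares beside those of all genes are thus descriptions and not tests. Members were expressed more often than the average gene, and the genes above the limit on at least 2 arrays were called in 5.86% (KR) and 7.61% (WT) of cases. In PR-null cells 0 members and 0 of 20046 genes (0.0%) were called, while 3 members and 937 genes had an unadjusted p under 0.05. The median member difference was 0.09 in KR cells (all genes -0.02) and 0.06 in WT cells (all genes -0.01), so most of the module lay near 0. Against the effect in PR-null cells, 4 members were called for the KR effect (9.76% against 3.75% of all genes) and 7 for the WT effect (17.1% against 5.21%), and both use the same PR-null arrays. Only DNAJB4 and CHAC1 were called in both receptor lines, 2 of the 4 KR calls and 2 of the 7 WT calls. Over all genes, 552 were called in the same direction in both lines, which is 67.6% of the KR calls and 52.0% of the WT calls, and with so few members called no difference from this share is drawn.

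**Figure D1:**
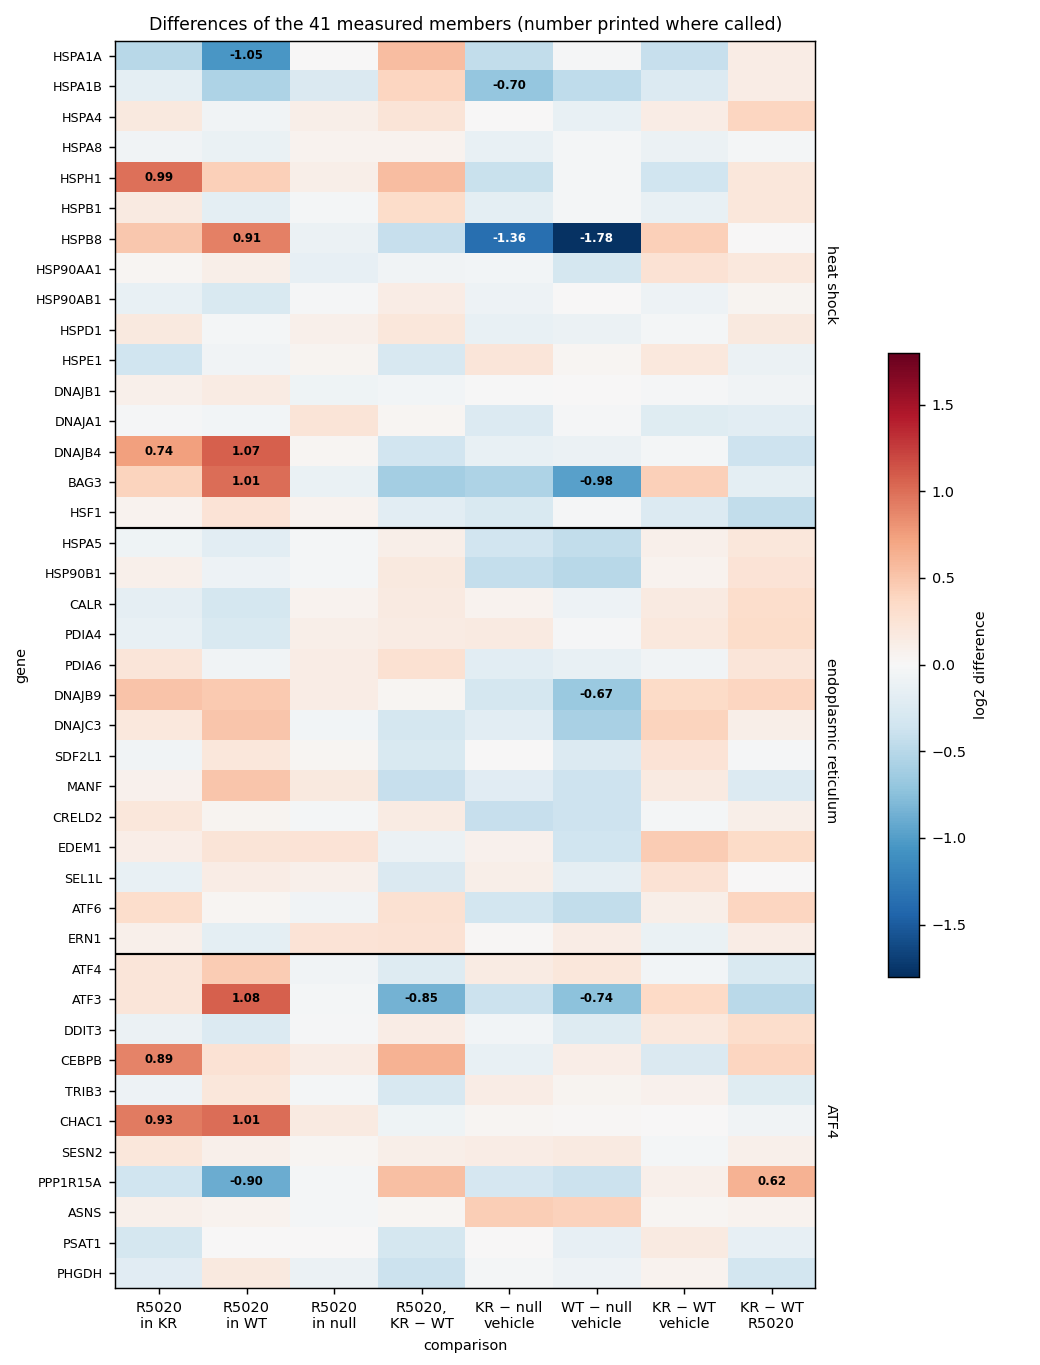
Log2 differences (colour) of the 41 measured members (rows, grouped by arm) in 8 comparisons (columns), with the value printed where a member was called. With R5020 the printed values lie in the heat shock and ATF4 arms. The ER arm has 0 of 14, near the 4.08% (KR) and 5.29% (WT) of all genes called, and 1 call in WT over PR-null cells with vehicle.

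Sequence of the promoters, taken from RefSeq (GRCh38.p14, 250 bases before to 50 after each annotated start), is shown first for the 4 heat shock members called in some comparison that hold a short heat shock element. The called members HSPH1 and BAG3 had no match to it in this window. Capitals mark a heat shock element of 2 inverted units, GAANNTTC or TTCNNGAA, a search added after the main motif list, and all windows are printed 5′ to 3′ on the strand of the gene.
HSPA1A, chr6:31815422-31815459, plus strand: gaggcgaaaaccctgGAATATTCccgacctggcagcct
HSPA1B, chr6:31827618-31827655, plus strand: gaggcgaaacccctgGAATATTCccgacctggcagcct
HSPB8, chr12:119178828-119178865, plus strand: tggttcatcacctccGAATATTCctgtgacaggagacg
DNAJB4, chr1:78004826-78004863, plus strand: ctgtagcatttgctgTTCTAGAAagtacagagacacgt
These letters occur in 13.5% of 35116 promoters and in those of 12 members, so the short motif is common. HSPA1A and HSPA1B share the same 8 letters, and their promoters were identical at 277 of 299 aligned bases (92.6%). The 2 genes are near-identical copies, so how far each probe reads the other transcript is uncertain.

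HSPA1A, the stress-inducible HSP70, fell with R5020 in WT cells. Its intensity was 10.24 and 10.06 with R5020, against 11.09 and 11.31 with vehicle, a difference of -1.05 ± 0.113 (adjusted p = 8.56e-10). KR cells gave 10.37 and 10.20 with R5020, against 10.76 and 10.81 with vehicle, a difference of -0.50 (adjusted p = 0.0019) that is under the size limit. In PR-null cells HSPA1A read 11.29 and 11.17 with R5020, against 11.21 and 11.24 with vehicle. Both receptor lines thus lay lower with R5020, without overlap between treatments, and the PR-null arrays overlapped. The KR and WT effects were not called different (KR minus WT 0.55 ± 0.160, adjusted p = 0.0947). Its copy HSPA1B gave a WT difference of -0.56 (adjusted p = 0.00414), from 11.86 and 11.84 with R5020, against 12.32 and 12.51 with vehicle, again under the size limit. KR cells read 11.88 and 12.08 with R5020, against 11.88 and 12.46 with vehicle, a wide vehicle pair that holds the R5020 values.

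HSPH1 (HSP110), the nucleotide exchange factor of HSP70, showed the opposite direction and rose in KR cells. In these cells it read 11.39 and 11.67 with R5020, against 10.61 and 10.49 with vehicle, and differed by 0.99 ± 0.113 (adjusted p = 5.19e-09). WT cells gave 11.40 and 11.26 with R5020, against 10.91 and 10.90 with vehicle, a difference of 0.43 (adjusted p = 0.00779) under the size limit. Levels with R5020 were close in both lines, and the KR vehicle arrays were the lowest of all 12. The effects in KR and WT cells were not called different (0.56 ± 0.160, adjusted p = 0.0821). In PR-null cells HSPH1 read 11.00 and 11.09 with R5020, against 10.98 and 10.91 with vehicle. The remaining members of this class, HSPA4 and HSPA8, were called in no comparison.

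The small heat shock protein HSPB8 works with BAG3 to send misfolded clients to autophagy, and both rose with R5020 in WT cells. HSPB8 read 7.45 and 7.51 with R5020, against 6.54 and 6.61 with vehicle in WT cells, a difference of 0.91 ± 0.115 (adjusted p = 4.52e-08). KR cells gave 7.62 and 7.35 with R5020, against 7.13 and 6.86 with vehicle, a difference of 0.48 (adjusted p = 0.00354) under the size limit. PR-null cells read 8.29 and 8.22 with R5020, against 8.34 and 8.37 with vehicle. All 8 arrays of the receptor lines lay below all 4 PR-null arrays. BAG3 in WT cells read 9.72 and 9.46 with R5020, against 8.63 and 8.53 with vehicle, a difference of 1.01 ± 0.116 (adjusted p = 4.3e-09). Its KR values were 9.45 and 9.38 with R5020, against 8.93 and 9.09 with vehicle, a difference of 0.40 (adjusted p = 0.0253). PR-null cells gave 9.58 and 9.30 with R5020, against 9.58 and 9.53 with vehicle, so the WT vehicle arrays stood lowest. Neither gene was called for the KR minus WT difference (HSPB8 -0.42 ± 0.162, adjusted p = 0.328, and BAG3 -0.61 ± 0.164, adjusted p = 0.0522).

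DNAJB4, an HSP40 co-chaperone that hands clients to HSP70, rose in both receptor lines. Its KR values were 6.90 and 6.98 with R5020, against 6.31 and 6.09 with vehicle, a difference of 0.74 ± 0.117 (adjusted p = 7.39e-06). Its WT values were 7.37 and 7.25 with R5020, against 6.16 and 6.31 with vehicle, a difference of 1.07 ± 0.117 (adjusted p = 1.08e-09). PR-null values of 6.27 and 6.48 with R5020 overlapped the 6.46 and 6.23 with vehicle. The KR and WT effects were not called different (-0.34, adjusted p = 0.546). A second DNAJB4 probe, above the limit on 4 arrays, gave 0.54 in KR cells, under the size limit, and 0.76 in WT cells, which was called. DNAJB1 and DNAJA1, co-chaperones of the same family, were not called in any comparison.

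Much of the core of the heat shock response stayed under the thresholds with R5020. HSF1 differed by 0.06 in KR cells and 0.25 in WT cells, and neither cytosolic HSP90 gene nor either mitochondrial chaperonin gene (HSPD1 and HSPE1) was called in any comparison by its brightest probe. The probes of HSPE1 disagreed. Its dimmer probe, above the limit on all 12 arrays, gave 0.07 in KR cells and -0.58 in WT cells (adjusted p = 0.00066), and was called for the WT minus PR-null effect (-0.70 ± 0.173, adjusted p = 0.0074), whereas the brighter probe gave -0.36 in KR cells and -0.06 in WT cells. A heat shock element of 3 units, GAANNTTC followed by NNGAA or TTCNNGAA followed by NNTTC, on either strand, was found in 0.49% of promoters. It was found in 5 members (DNAJA1, HSP90AA1, HSP90AB1, HSPA8 and HSPD1), each of which also holds the 2-unit letters that form part of it. None of the 5 was called by its brightest probe, and 3 are shown as examples, the constitutive HSP70 and both cytosolic HSP90 genes.
HSPA8, chr11:123062164-123062206, minus strand: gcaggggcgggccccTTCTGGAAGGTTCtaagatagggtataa
HSP90AA1, chr14:102087105-102087147, minus strand: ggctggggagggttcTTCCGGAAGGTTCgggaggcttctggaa
HSP90AB1, chr6:44247816-44247858, plus strand: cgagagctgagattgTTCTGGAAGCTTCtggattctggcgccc
Their R5020 differences were -0.06 (KR) and -0.12 (WT) for HSPA8, 0.04 and 0.11 for HSP90AA1, and -0.14 and -0.28 for HSP90AB1. A match of letters is a description of the window and not evidence of binding.

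**Figure D2:**
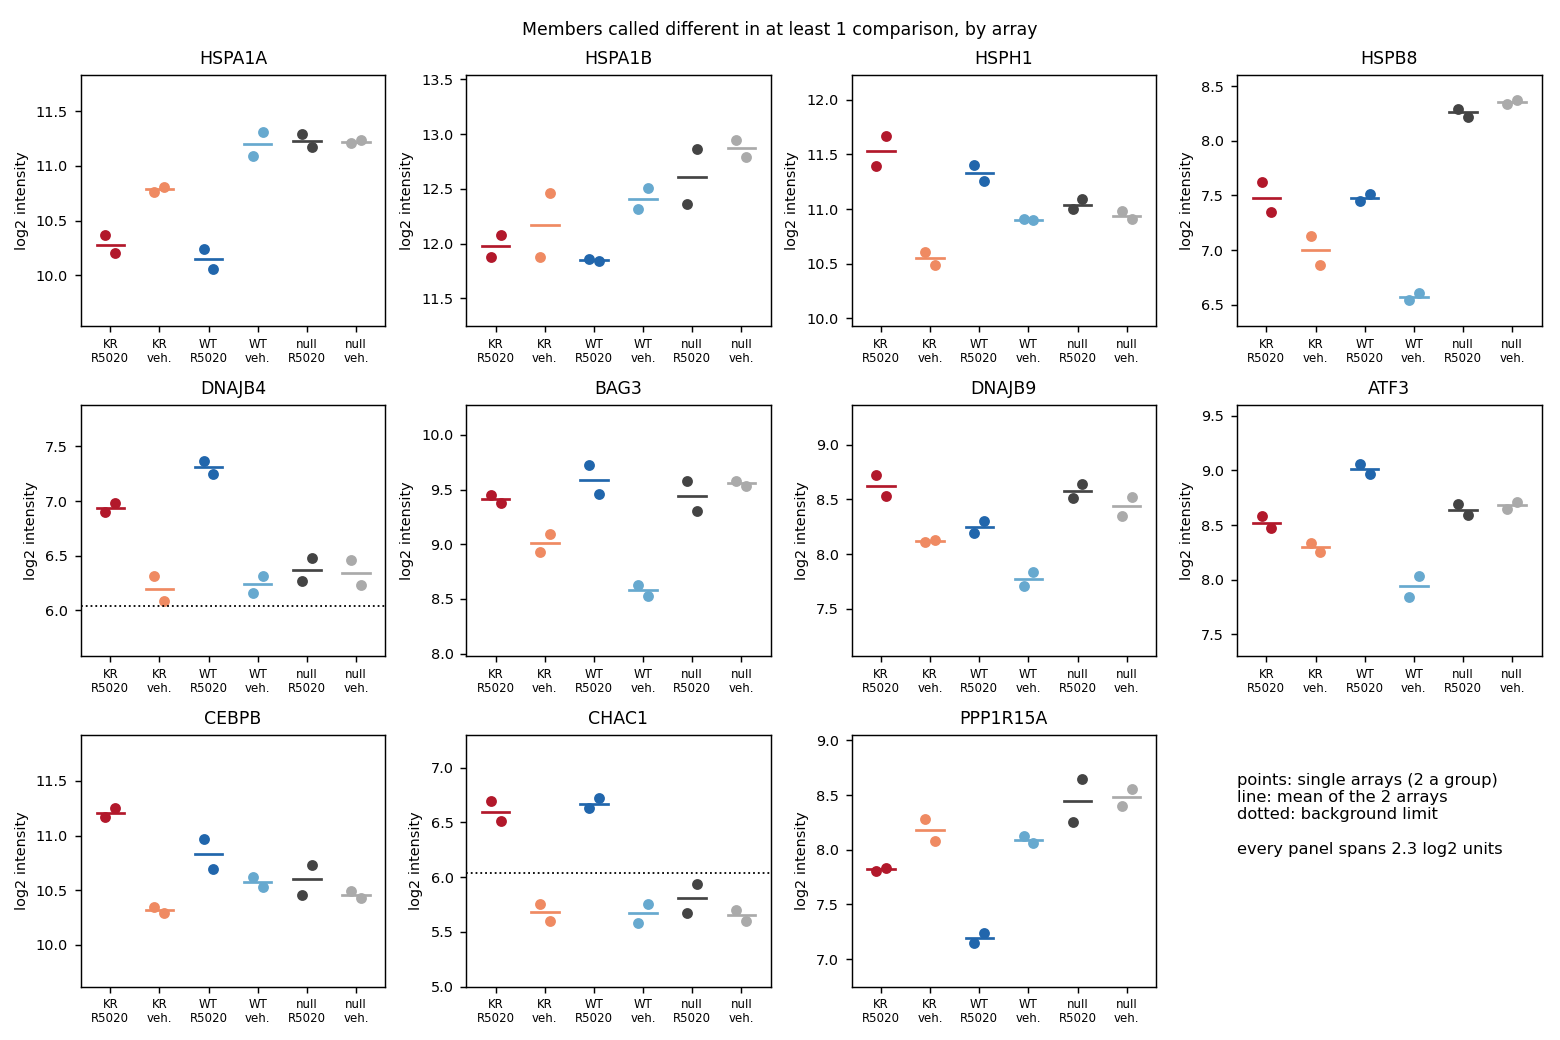
Log2 intensity (y axis) on single arrays (points, 2 a group, with a line at their mean) for the 11 members called in at least 1 comparison, with KR, WT and PR-null groups from left to right and R5020 left of vehicle. DNAJB4 and CHAC1 lie higher with R5020 and were called in both receptor lines. HSPH1, HSPB8, BAG3, DNAJB9, ATF3 and CEBPB also lie higher with R5020 in both lines, but none of them was called in both. HSPA1A and PPP1R15A lie lower with R5020 in both lines and were called in WT cells only. The PR-null HSPB8 arrays, 8.22 to 8.37, lie above all others of that gene.

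In the ATF4 arm, CHAC1 rose in both receptor lines from a signal not above background. It gave 6.70 and 6.51 with R5020, against 5.75 and 5.60 with vehicle in KR cells, and 6.63 and 6.72 with R5020, against 5.58 and 5.75 with vehicle in WT cells. PR-null arrays read 5.67 and 5.94 with R5020, against 5.70 and 5.60 with vehicle, all below the limit. Measured against the limit, the rise was at least 1.48-fold in KR cells and at least 1.55-fold in WT cells. The calls rest on the measured values (limma adjusted p = 4.07e-08 in KR and 3.97e-09 in WT cells), and the bounds were not tested. The KR bound lies under the 1.52-fold size limit of a call.

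ATF3, a stress-induced repressor and activator of the ATF family, rose in WT cells and was the only member whose effect was called different between the receptor lines. WT cells read 9.06 and 8.97 with R5020, against 7.84 and 8.03 with vehicle, a difference of 1.08 ± 0.110 (adjusted p = 2.25e-10). KR cells read 8.58 and 8.47 with R5020, against 8.34 and 8.25 with vehicle, a difference of 0.22 (adjusted p = 0.331). The KR effect was smaller than the WT effect (KR minus WT -0.85 ± 0.156, adjusted p = 0.000705), and 2.44% of members against 1.01% of all genes were called for this difference. PR-null cells gave 8.69 and 8.59 with R5020, against 8.65 and 8.71 with vehicle. The WT vehicle arrays were the lowest of the 12 and the WT R5020 arrays the highest. The other ATF3 probes lay below the limit on every array and gave WT differences of 0.05 and -0.11. The call between lines was lost (adjusted p = 0.0165) without WT vehicle replicate 1, and likewise without KR vehicle replicate 1 (0.0101) or KR R5020 replicate 2 (0.0119).

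CEBPB, a bZIP factor that pairs with ATF4, rose in KR cells. Its KR values were 11.17 and 11.25 with R5020, against 10.35 and 10.29 with vehicle, a difference of 0.89 ± 0.116 (adjusted p = 1.11e-07). Its WT values were 10.97 and 10.69 with R5020, against 10.62 and 10.53 with vehicle, a difference of 0.26 (adjusted p = 0.202). PR-null values were 10.46 and 10.73 with R5020, against 10.49 and 10.43 with vehicle. The KR R5020 arrays were the highest, and the difference between lines, 0.63 ± 0.164, missed the threshold (adjusted p = 0.0384).

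PPP1R15A (GADD34), the phosphatase subunit that reverses eIF2 phosphorylation, fell in WT cells. It read 7.15 and 7.24 with R5020, against 8.13 and 8.06 with vehicle in WT cells, a difference of -0.90 ± 0.119 (adjusted p = 1.4e-07). KR cells gave 7.81 and 7.83 with R5020, against 8.28 and 8.08 with vehicle, a difference of -0.36 (adjusted p = 0.06). PR-null cells gave 8.25 and 8.65 with R5020, against 8.40 and 8.56 with vehicle. Under R5020 the KR arrays lay above the WT arrays by 0.62 ± 0.119 (adjusted p = 0.000329), the single member called in that comparison (2.44% of members against 2.56% of all genes). That call was lost without WT R5020 replicate 1 (0.58, adjusted p = 0.015) or KR R5020 replicate 2 (0.61, adjusted p = 0.0104). The R5020 effects themselves were not called different (0.54 ± 0.168, adjusted p = 0.146).

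ATF4 itself differed by 0.45 in WT cells (adjusted p = 0.00497) and by 0.22 in KR cells, both under the size limit. Its other 2 probes disagreed in direction, with WT differences of 0.54 and -0.28. DDIT3 (CHOP), the pro-apoptotic factor of the pathway, differed by -0.11 in KR cells and -0.24 in WT cells, and TRIB3 by -0.09 and 0.21. The amino acid synthesis enzymes ASNS, PSAT1 and PHGDH were not called, with R5020 differences of -0.31 to 0.09 in KR cells and 0.01 to 0.18 in WT cells. The amino acid response element TGATGNAAN, the letters of a site for ATF4 dimers searched on both strands, lay in 3.61% of promoters and in 4 members, of which the 3 measured are shown in capitals.
CHAC1, chr15:40953246-40953284, plus strand: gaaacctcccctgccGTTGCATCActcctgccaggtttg
ATF3, chr1:212565201-212565239, plus strand: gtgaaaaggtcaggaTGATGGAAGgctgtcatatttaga
ASNS, chr7:97872453-97872491, minus strand: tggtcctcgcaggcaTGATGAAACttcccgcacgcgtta
The 3 genes share these letters. CHAC1 rose at least 1.48-fold (KR) and 1.55-fold (WT), ATF3 gave log2 differences of 0.22 and 1.08, and ASNS 0.09 and 0.06. The short letters ACANNNTGT, a pair of half-sites of the progesterone response element, were found in 5.37% of promoters and in 0 of the members' promoters. Sites for PR can lie far from a promoter, and such regions were not analysed here.

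**Figure D3:**
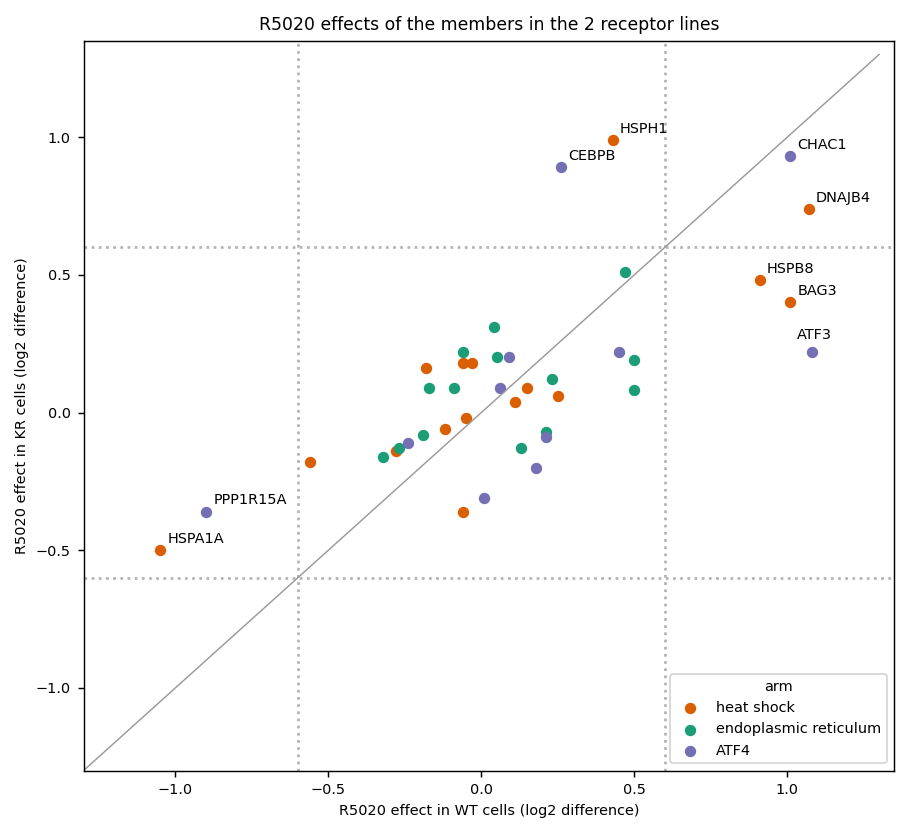
R5020 effect in KR cells (y axis) against that in WT cells (x axis), in log2 differences, for the 41 members coloured by arm. Dotted lines mark 0.6 in both directions and the diagonal equal effects, and the 9 named members were called in at least 1 line. Of these, HSPH1, CEBPB, HSPA1A and PPP1R15A lie above the diagonal, the last pair with negative effects in both lines. The other named members lie below it, ATF3 (0.22 in KR, 1.08 in WT) the farthest. CHAC1 is plotted at its measured values, with vehicle arrays not above background.

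In the ER arm, 0 of 14 measured members were called for R5020 in either receptor line, a count near the share of all genes called (4.08% in KR and 5.29% in WT cells) for a list of this size. Differences ran from -0.16 to 0.51 in KR cells and from -0.32 to 0.50 in WT cells. The ER chaperones HSPA5 (BiP), HSP90B1 (GRP94) and CALR (calreticulin) gave -0.08, 0.09 and -0.16 in KR cells and -0.19, -0.09 and -0.32 in WT cells. DNAJB9, a BiP co-chaperone, gave 0.51 in KR cells (adjusted p = 0.0015) and 0.47 in WT cells (adjusted p = 0.00262), both under the size limit. In WT cells MANF, a secreted ER stress factor, gave 0.50 (adjusted p = 0.00141), and DNAJC3, a BiP co-chaperone that also restrains PERK, gave 0.50 (adjusted p = 0.0025). ATF6 differed by 0.31 in KR cells and 0.04 in WT cells.

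The ER stress element, CCAAT and CCACG separated by 9 bases of any kind, the letters bound by ATF6 together with NF-Y, was found on either strand in 0.0769% of promoters and in 5 members. Their windows are shown because the element is rare and marks the classic chaperone targets, with the element in capitals.
HSPA5, chr9:125241376-125241424, minus strand: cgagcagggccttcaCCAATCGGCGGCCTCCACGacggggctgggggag
HSP90B1, chr12:103930306-103930354, plus strand: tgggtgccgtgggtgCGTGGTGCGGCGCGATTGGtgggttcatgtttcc
CALR, chr19:12938369-12938417, plus strand: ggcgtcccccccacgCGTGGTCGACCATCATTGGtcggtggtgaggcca
CRELD2, chr22:49918539-49918587, plus strand: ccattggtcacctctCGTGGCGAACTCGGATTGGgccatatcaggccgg
PDIA6, chr2:10812838-10812886, minus strand: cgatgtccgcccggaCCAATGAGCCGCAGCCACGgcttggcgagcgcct
None of these 5 genes was called in any of the 10 comparisons. The unfolded protein response element TGACGTGG was found in 0.729% of promoters and in 0 of the members' promoters.

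**Figure D4:**
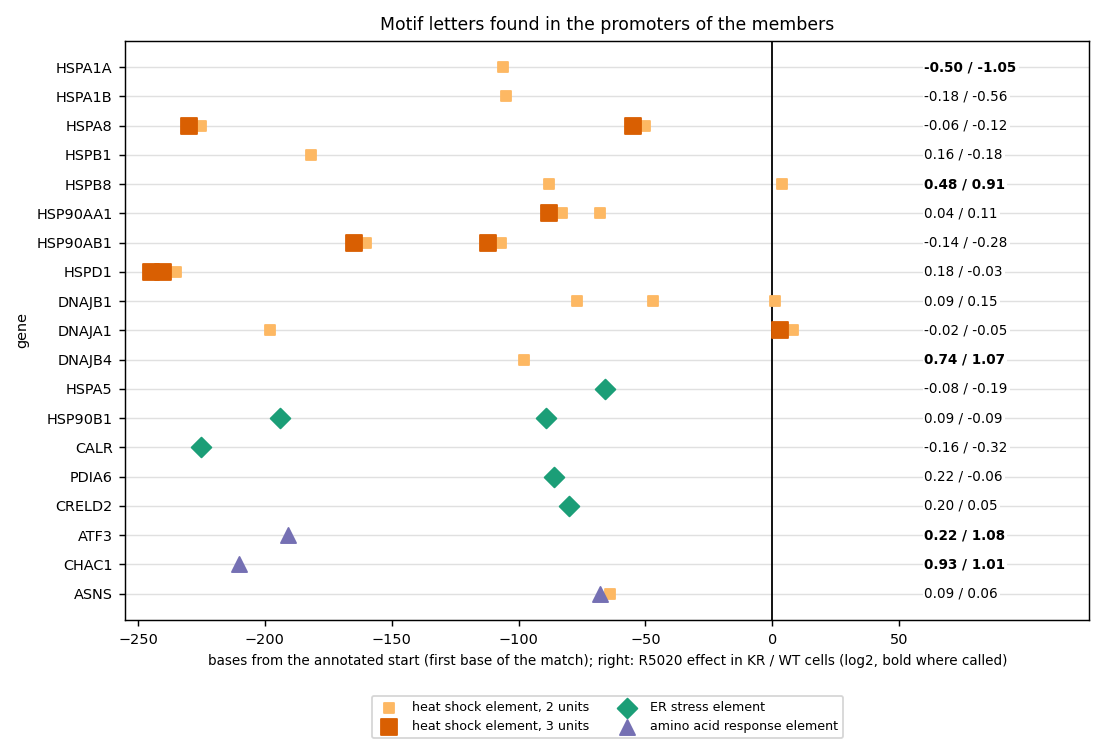
First base of each motif match (x axis, bases from the annotated start) in the promoters of measured members (rows), with the R5020 differences in KR and WT cells printed at the right, bold where called in either line. CHAC1 is given at its measured values, with vehicle arrays not above background. Genes with 3-unit heat shock elements or ER stress elements have differences between -0.32 and 0.22.

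The lines were next compared without ligand, to see whether the module differed between clones before R5020 was given. With vehicle, 2 members were called lower in KR than in PR-null cells (4.88% against 2.6% of all genes, 1.59% lower) and 4 lower in WT than in PR-null cells (9.76% against 3.16%, 1.69% lower), with 0 higher in each. Both comparisons use the same PR-null vehicle arrays. HSPB8 differed by -1.36 ± 0.115 in KR cells (2.56-fold lower, adjusted p = 2.44e-12) and by -1.78 ± 0.115 in WT cells (3.44-fold lower, adjusted p = 3.59e-16). HSPA1B was called lower in KR cells (-0.70 ± 0.139, adjusted p = 0.000483), where the vehicle arrays read 11.88 and 12.46, against 12.95 and 12.79 in PR-null cells. Its call was lost without KR vehicle replicate 1 (-0.41, adjusted p = 0.176) and without PR-null vehicle replicate 1 (-0.62, adjusted p = 0.0262).

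In WT cells with vehicle, BAG3 (-0.98 ± 0.116, adjusted p = 2.11e-08) and ATF3 (-0.74 ± 0.110, adjusted p = 3.39e-06) were lower than in PR-null cells. The KR differences of these genes were -0.55 (adjusted p = 0.00126) and -0.38 (adjusted p = 0.0314), neither called. DNAJB9 read 7.71 and 7.84 in WT cells with vehicle, against 8.35 and 8.52 in PR-null cells, and was called lower (-0.67 ± 0.112, adjusted p = 3.16e-05), but without PR-null vehicle replicate 2 the difference was -0.58. HSPB8, BAG3 and ATF3 were thus lower in WT than PR-null cells with vehicle and rose with R5020 in WT cells, but both comparisons use the same 2 WT vehicle arrays. All 10 ER chaperones and folding factors had negative differences between WT and PR-null cells with vehicle, with a median of -0.37 where the median of all genes was 0.01. DNAJB9 was the 1 called among them. HSP90B1 (-0.50, adjusted p = 0.00211), HSPA5 (-0.44, adjusted p = 0.0053) and DNAJC3 (-0.59, adjusted p = 0.000445) were under the size limit. In KR cells, 7 of the 10 were negative, with a median of -0.20. Over all 20046 genes, 9772 differences were negative for WT cells and 9710 for KR cells.

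With vehicle, 0 members were called between KR and WT cells (0.853% of all genes). An unadjusted p under 0.05 was found for 13 of 41 members and for 2905 of 20046 genes. The smallest adjusted p of a member was 0.0162. PGR signal, which differed between lines and treatments as given above, was not tested for its part in any of these differences.

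Genes that work beside the members were taken as 7 lists, with 145 of 152 genes measured. They were called in 5.52% of cases with R5020 in KR cells (7 higher, 1 lower), in 12.4% in WT cells (14 higher, 4 lower) and in 0 cases in PR-null cells. All genes were called in 4.08% (KR) and 5.29% (WT) of cases, and those above the limit on at least 2 arrays in 5.86% and 7.61%, so the KR share of the lists lay at the background. Among 31 other cytosolic chaperones, HSPA2 and HSPA6, both HSP70 proteins, rose in KR cells (1.08 and 0.72) and WT cells (1.21 and 0.74). The co-chaperones DNAJB6 (0.75) and BAG5 (0.69) were called in WT cells. Among 11 mitochondrial chaperones and proteases, the nucleotide exchange factors GRPEL1 (1.07) and GRPEL2 (0.94) rose in WT cells, and the GRPEL1 effect was smaller in KR cells (0.36, KR minus WT -0.70 ± 0.153, adjusted p = 0.00746). Of 10 genes of the steroid receptor chaperone machine, FKBP5, the HSP90-bound immunophilin, was the 1 called with R5020, with 3.36 ± 0.124 in KR cells (adjusted p = 6.26e-25) and 2.66 ± 0.124 in WT cells (adjusted p = 2.85e-21).

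Among 33 other ER folding and unfolded protein response genes, XBP1 fell with R5020 in both receptor lines. It read 12.55 and 12.24 with R5020, against 13.45 and 13.35 with vehicle in KR cells (-1.01 ± 0.116, adjusted p = 5.27e-09), and 11.94 and 11.89 with R5020, against 13.47 and 13.29 with vehicle in WT cells (-1.47 ± 0.116, adjusted p = 9.38e-14). PR-null arrays gave 12.62 and 12.68 with R5020, against 12.57 and 12.77 with vehicle. With vehicle XBP1 was higher than in PR-null cells in KR cells (0.74) and WT cells (0.71). These differences and the falls with R5020 use the same vehicle arrays of each receptor line. An array of this kind does not separate spliced from unspliced XBP1. CREB3L2, an ER-bound factor of the ATF6 type, rose in KR (0.65) and WT cells (0.86), and SELENOS, an ER membrane selenoprotein, rose in WT cells (0.63). HYOU1 (-0.75), ERO1A (-0.89) and DNAJC10 (-0.77), which fold proteins or form disulphides in the ER, were lower in WT than in PR-null cells with vehicle. Of 15 other degradation genes, OS9, a lectin that picks out misfolded glycoproteins, was the 1 called with R5020 (-0.66 in WT cells). This is 6.67% of the list, near the 5.29% of all genes.

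Among 35 other ATF4 targets, 3 were called higher in KR cells (DDIT4, VLDLR and CEBPG), and 5 higher and 1 lower in WT cells. These are 8.57% (KR) and 17.1% (WT), against 4.08% and 5.29% of all genes. Genes above the limit on at least 2 arrays were called in 5.86% and 7.61% of cases. DDIT4 (REDD1), an inhibitor of mTORC1 that glucocorticoids also induce, read 12.46 and 12.31 with R5020, against 11.02 and 10.96 with vehicle in KR cells, a difference of 1.40 ± 0.119. WT cells gave 11.75 and 11.51 with R5020, against 11.22 and 11.30 with vehicle, a difference of 0.37. The KR effect was larger by 1.02 ± 0.168 (adjusted p = 0.000133). PR-null arrays gave 10.93 and 10.93 with R5020, against 10.71 and 11.11 with vehicle. CEBPG, a bZIP partner of ATF4, gave 0.61 in KR and 1.19 in WT cells, and VLDLR, a lipoprotein receptor, 0.82 and 0.81. In WT cells the amino acid transporter SLC7A5 (1.06), the secreted glycoprotein STC2 (0.74) and the stress factor NUPR1 (0.62) rose, and JDP2 (-0.61) fell. With vehicle, NUPR1 was also lower than in PR-null cells in KR (-1.99 ± 0.128) and WT cells (-1.13 ± 0.128). Its rise with R5020 in WT cells uses the same WT vehicle arrays. Of 10 eIF2 kinase and phosphatase genes, EIF2B5, a subunit of the eIF2 exchange factor, fell in WT cells (-0.66).

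**Figure D5:**
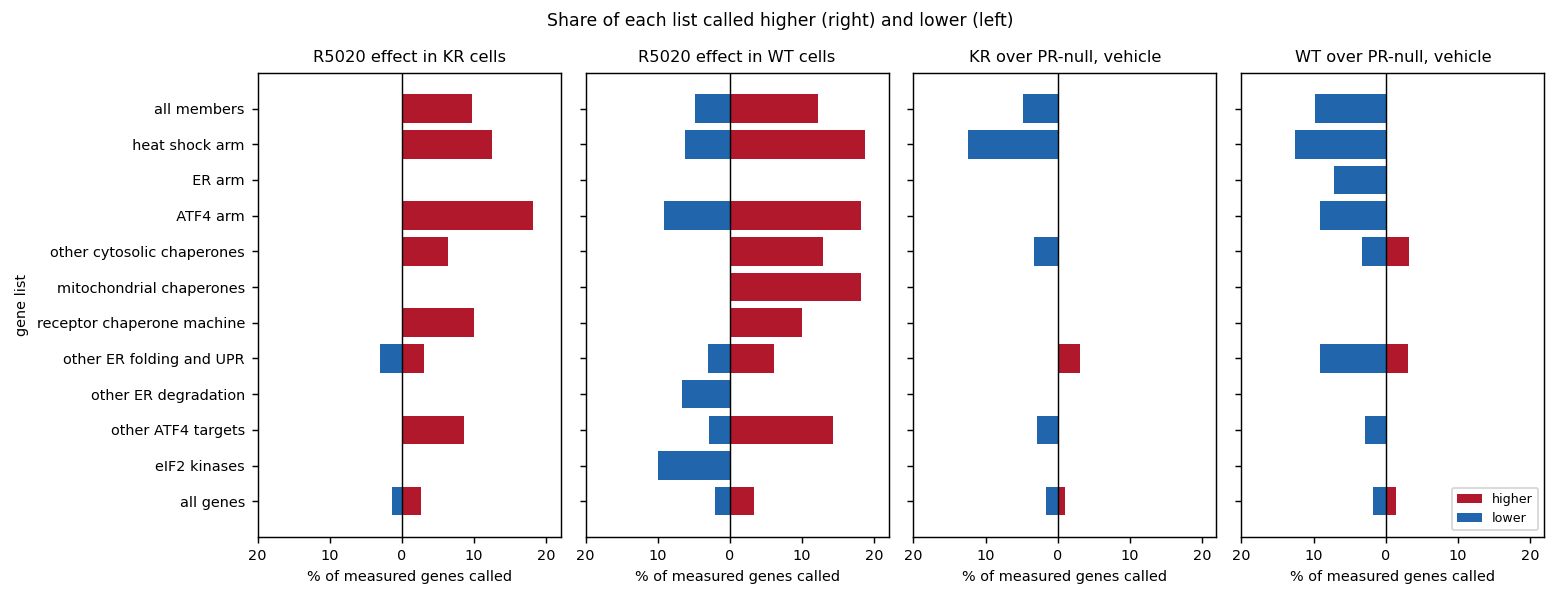
Share of measured genes called higher (red, right) and lower (blue, left), in percent, for the members, their arms, the 7 lists of other pathway genes and all genes, in 4 comparisons. With R5020 the members reach 9.76% in KR cells and 17.1% in WT cells, against 4.08% and 5.29% of all genes, and the ER arm 0 in both. Members and lists were chosen with earlier results of these data known, so the shares are descriptions and not tests.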

How the data were processed

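RNA of 12 samples had been measured on Illumina HT-12v4 bead arrays. The deposited values are log2 intensities, which the authors made by log2 transformation and quantile normalization in lumi, whose version was not given in the sources used here. Another table, with 24 columns (12 of signals) under codes that the labels do not explain, was not used. Groups of line and treatment were taken from the sample labels.

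Of 47231 probes, 30113 carried 1 gene symbol in the platform annotation, 8 several and 17110 none, and 30074 had a gene identifier found in the RefSeq table. With limma 3.58.1 (R 4.3.3), group means were fitted over all 12 arrays and 10 contrasts were moderated by empirical Bayes (37.1 prior and 6 residual degrees of freedom). The approach was tested on simulated data. With 2 arrays a group an exact permutation test cannot go below p = 0.333, so none was used for single genes. The p-values rest on the spread between duplicate experiments, pooled largely over all probes and groups. They do not measure the spread between clones. The background limit, 6.04, is the 95th percentile of 457 olfactory receptor probes. Their 99th percentile, 6.44, left 35 rather than 38 members above it on all 12 arrays.

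Members called in any contrast were given by array, the others by counts and ranges. From each list of other genes up to 4 called genes a contrast were named. For R5020 in WT cells, all 6 called genes of the other ATF4 targets were named. FKBP5 and XBP1 could be named in any case. The members and lists were chosen with earlier results of these data known. Motifs were searched with Python 3.11.15 on both strands.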

Additional observations from a re-analysis of the deposited data

Results flagged for a closer look

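A difference in the R5020 effect between lines, tested within the model for all probes, drew attention to several members. The effect on ATF3 was smaller in KR than in WT cells (-0.85, adjusted p = 0.000705). Compared with PR-null cells, the KR effect was larger for HSPH1 (0.89, adjusted p = 0.000142), DNAJB4 (0.70, adjusted p = 0.00531), CEBPB (0.75, adjusted p = 0.00221) and CHAC1 (0.77, adjusted p = 0.00158), 4 of 41 members against 3.75% of all genes. Compared with PR-null cells, the WT effect was larger for HSPB8 (1.01, adjusted p = 1.77e-05), DNAJB4 (1.04, adjusted p = 1.25e-05), BAG3 (1.13, adjusted p = 2.3e-06), ATF3 (1.11, adjusted p = 1.1e-06) and CHAC1 (0.85, adjusted p = 0.000297). It was more negative for HSPA1A (-1.06, adjusted p = 5.12e-06) and PPP1R15A (-0.87, adjusted p = 0.000374), so that 7 members were called, against 5.21% of all genes. Both sets of differences use the same 4 PR-null arrays. The CHAC1 values include arrays not above background and carry no fold. The call of the KR difference was lost without any 1 of PR-null vehicle replicate 1, PR-null R5020 replicate 1 or KR vehicle replicate 2 for DNAJB4, CEBPB and CHAC1. It was also lost without KR R5020 replicate 1 for DNAJB4 and CHAC1, and without KR R5020 replicate 2 for DNAJB4 and CEBPB. Adjusted p was then 0.0142 to 0.0764 for DNAJB4, 0.0169 to 0.0526 for CEBPB and 0.0162 to 0.0401 for CHAC1. Among the WT differences, CHAC1 lost the call without PR-null R5020 replicate 1 (0.72, adjusted p = 0.0105), and PPP1R15A without PR-null R5020 replicate 2 (-0.66, adjusted p = 0.0205). The ATF3 difference between KR and WT cells lost it without WT vehicle replicate 1 (-0.76), KR vehicle replicate 1 (-0.81) or KR R5020 replicate 2 (-0.80).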

How the results depend on the processing

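The 30 called differences of members were recomputed in 20 settings, giving 600 values, of which 567 kept direction and call, 33 lost the call and 0 changed direction. Of the 30, 18 kept the call in all settings. The block on replicate number changed no count of called members (4 in KR and 7 in WT cells for R5020). Arrays with the same number showed little shared deviation (correlations of -0.0468 to 0.0814 in 15 pairs of groups). This cannot tell whether arrays with the same number came from the same experiment.

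With a size limit of 1 on the log2 scale, the called members numbered 0 for R5020 in KR cells, 5 for R5020 in WT cells, 5 for WT minus PR-null, 0 for KR minus WT, 0 for KR minus PR-null, 1 for KR over PR-null and 1 for WT over PR-null with vehicle, and 0 for KR over WT with R5020. With an adjusted p under 0.05 and no size limit they numbered 8 (R5020 in KR), 13 (R5020 in WT), 2 (KR minus WT), 10 (KR over PR-null, vehicle), 14 (WT over PR-null, vehicle), 4 (KR over WT, vehicle) and 7 (KR over WT, R5020). The shares of all genes at these limits were not computed, so these counts give no comparison with other genes. The mean over probes gave 0 for KR minus WT and 1 for KR over PR-null with vehicle, normexp gave 0 for KR over WT with R5020, and scaling to housekeeping genes gave 1 for KR minus PR-null.

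With 1 array left out, which assumes that a lone array varies like the other groups, counts were 4 to 5 for R5020 in KR, 7 to 8 in WT and 0 in PR-null cells. They were 0 to 1 for KR minus WT, 1 to 4 for KR minus PR-null, 6 to 8 for WT minus PR-null, 1 to 3 for KR and 4 to 5 for WT over PR-null with vehicle, and 0 to 1 for KR over WT with R5020. Over all probes of ATF3, 2 of them below background, its WT effect was 0.34. DNAJB9 in WT over PR-null cells gave -0.59 after housekeeping scaling and -0.58 without PR-null vehicle replicate 2. PPP1R15A in KR over WT cells with R5020 gave 0.58 without WT R5020 replicate 1. The causes were not tested.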
